A study of Mus musculus with 6 samples.

Results

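The genes described here encode 9 RNA-binding proteins outside the ELAV and CPEB families that recognise AU-rich elements or other motifs in the 3′ untranslated regions of mRNAs. They are Tia1, Tial1, Khsrp, Hnrnpd, Zfp36, Zfp36l1, Pum2, Msi1 and Msi2. They were taken by name, together with every probe set that the platform annotation pairs with one of them alone, from 18193 genes with a named probe set. A probe set is a group of short probes read as 1 signal, and these genes had 35 of them, from 1 for Zfp36 to 8 for Msi2. All results concern the mRNAs of these proteins, not the proteins or their own targets.

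The arrays held RNA from mouse hippocampus in 3 groups. In 3 of the 6, RNA was recovered on protein-G beads with an antibody to the myc tag of a transgenic HuD protein, and in 2 the beads carried non-immune IgG, which is the background of the beads. The remaining array held the total input RNA and has no replicate. HuD (gene Elavl4) belongs to the neuronal ELAV proteins and binds U-rich and AU-rich stretches of RNA. The sources used here do not give the strain, age and sex of the mice, the promoter of the transgene, the number of animals pooled or the genotype behind the IgG and input arrays. Nor do they say whether each array had its own animals, and p-values reflect no more than array-to-array spread, possibly of technical origin.

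AU-rich elements are stretches rich in A and U that set how long an mRNA lives and how well it is translated. Several protein families compete for them. ELAV proteins mostly stabilise the bound mRNA, KSRP (Khsrp), AUF1 (Hnrnpd) and the zinc finger proteins TTP (Zfp36) and BRF1 (Zfp36l1) mostly promote its decay, and TIA-1 (Tia1) and TIAR (Tial1) hold back its translation and collect in stress granules. Pumilio 2 (Pum2) and the Musashi proteins (Msi1, Msi2) recognise other short 3′ motifs and repress or redirect translation, Musashi mainly in neural stem cells and Pumilio also in dendrites.

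Of the 35 probe sets 29 passed a filter on low signal, a mean of log2(signal + 32) over the 6 arrays above the array-wide median of 5.78, which corresponds to a signal of about 22.9. The 6 that did not were 1 each of Tia1, Zfp36l1, Pum2 and Msi2 and 2 of Msi1, with signals between 1.6 and 38.4. The filter uses all groups, so a probe set bright in a single group could pass through that group. Differences are given on the log2(signal + 32) scale with their standard error, and a change is named where limma's adjusted p was at most 0.05. Folds are ratios on that scale too, of signal + 32, so at low signals they are smaller than the ratios of the printed signals.

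Against the IgG beads, 9 of the 29 probe sets rose in the HuD pulldowns, 1 fell and 19 did not pass the threshold. The rises lay in 5 of the 9 genes, Tial1, Khsrp, Zfp36l1, Msi1 and Msi2, and the fall in Tia1. The fall and the smaller Tial1 rise concern probe sets that passed the filter through 1 group, IgG and HuD in turn. The other group was near or below the filter level there, which leaves their size uncertain. Both calls also held with no filter. Over all 22518 tested probe sets 14.7% rose and 26.0% fell. The median difference was 0.28 over the tested probe sets of these genes and −0.26 over all. Unadjusted limma p-values under 0.05 were found for 11 rises and 1 fall among the members. The shares of all probe sets at that unadjusted threshold were not counted. They cannot be lower than the adjusted shares above, so these member counts have no like share to be set against. All 3 HuD arrays lay above both IgG arrays in 13 of the 29 probe sets and below both in 3, against 22.2% and 40.0% of all tested probe sets. Those 3 had HuD signals of 46.2 or less, near the filter level. Each array had been scaled to a common level, so a value is a share of that array's RNA. Centred on the 75th percentile instead, the median of all probe sets moved to 0.06 and rises made up 63.2% of all calls in place of 36.1%, with 48.5% under median centring and 51.2% under quantile normalization.

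**Figure D1:**
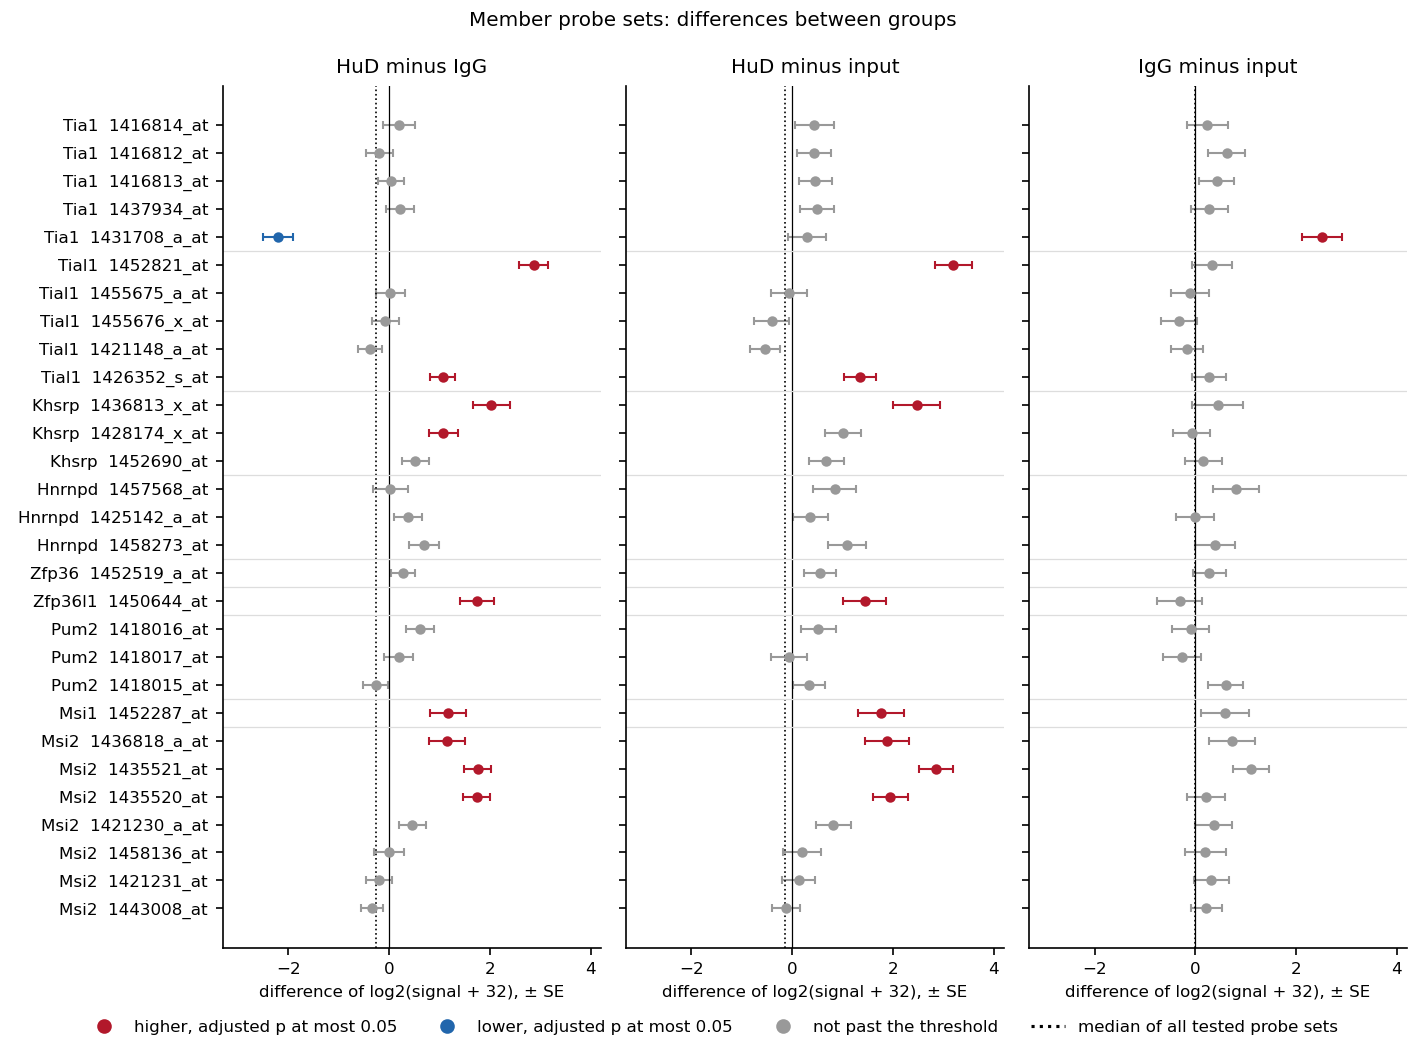
Differences between groups on the log2(signal + 32) scale (x axis, mean ± SE from limma) for the 29 tested probe sets of the 9 genes (y axis), with red for higher, blue for lower and grey for not past an adjusted p of 0.05. The 10 probe sets called between HuD and IgG run from −2.21 for Tia1 1431708_a_at to 2.87 for Tial1 1452821_at, and dotted lines mark the median of all tested probe sets.

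Markers of other cell types were lower in the HuD pulldowns in part, and not evenly. Of the 4 interneuron markers 3 had all HuD signals below both IgG signals, as had 3 of the 4 microglia, 2 of the 3 oligodendrocyte, 2 of the 4 astrocyte, 1 of the 3 choroid plexus and 1 of the 3 endothelial markers. Among all tested probe sets 40.0% lay below both IgG signals in this way and 22.2% above both. With so few markers per type, the counts were not tested against these shares. Interneuron markers summed to 2354 to 3027 on the HuD arrays, 6377 to 6643 on the IgG arrays and 6601 in the input, microglia markers to 1230 to 1781, 2582 to 4280 and 3988, and oligodendrocyte markers to 9106 to 13209, 13363 to 20529 and 11819. Astrocyte markers summed to 3598 to 3886, 7398 to 8887 and 7604, a gap that Aldoc set, since without it the sums overlapped (1208 to 1944 on the HuD arrays, 1318 and 2090 on the IgG arrays) and Slc1a3 was higher on all HuD arrays than on both IgG arrays. Choroid plexus markers summed to 12205 to 15308, 16264 to 18623 and 9409, and endothelial markers to 98 to 133, 240 to 306 and 264, and these sums too overlapped without the brightest marker, Ttr or Cldn5. The 8 markers of hippocampal and excitatory neurons did not move together, with 4 lower, 2 higher (Snap25 and Neurod2) and 2 overlapping. Their sum was 14924 to 18431 on the HuD arrays, 11173 to 12363 on the IgG arrays and 10454 in the input, but without Snap25 it was lower with HuD, at 2380 to 3843 against 4224 to 4930. Among them the dentate gyrus factor Prox1 had a signal of 9.8 in the input, below that array's median of 20.1, and the other 7 were above it. The part of these shifts in the results below was not tested. Between a pulldown and its controls, the selection of RNA by the pulldown, fewer cells of a type and less RNA per cell cannot be told apart.

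Among the AU-rich element proteins that promote decay, Khsrp and Zfp36l1 rose in the HuD pulldowns, whereas Hnrnpd and Zfp36 did not pass the threshold. KSRP is a KH-domain protein that recruits the exosome and deadenylase to AU-rich mRNAs. Its probe set 1436813_x_at had signals of 750.8, 1601.3 and 1571.8 on the HuD arrays, 196.8 and 391.5 on the IgG arrays and 197.3 in the input. The lowest HuD signal thus lay above both IgG signals. The difference was 2.03 ± 0.37, a 4.08-fold rise (limma, adjusted p = 0.00201). A second probe set, 1428174_x_at, rose 2.11-fold (1.08 ± 0.28, adjusted p = 0.00956), with HuD signals of 127.3, 148.4 and 101.6, IgG signals of 59.1 and 28.3 and 45.8 in the input.

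The third Khsrp probe set, 1452690_at, did not pass (0.52 ± 0.27, adjusted p = 0.138), and its groups overlapped, with HuD signals of 62.2, 83.5 and 40.1 against IgG signals of 24.5 and 40.8. Whether this probe set differed from 1436813_x_at was tested on the array-by-array difference between the pair. That difference was −1.50 ± 0.41 (limma over all within-gene differences, adjusted p = 0.0293). It did not pass without IgG array 1 (−1.24), HuD array 2 (−1.49) or HuD array 3 (−1.16). With all arrays kept, it was also lost with 16 as the constant added to each signal (−1.43) or with quantile normalization (−1.28). Between 1428174_x_at and 1436813_x_at the difference of −0.95 ± 0.49 did not pass, except without IgG array 2, where it was −1.69. Both rising probe sets carry the suffix _x_at, which marks probes that can also bind other transcripts.

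ZFP36L1 is a CCCH zinc finger protein that binds AU-rich elements of cytokine and growth factor mRNAs. For Zfp36l1 the probe set 1450644_at read 1694.3, 1035.1 and 2134.1 on the HuD arrays, 342.2 and 560.9 on the IgG arrays and 553.5 in the input. All HuD arrays stood above all others. The rise over IgG was 3.37-fold (1.75 ± 0.34, adjusted p = 0.00246) and held with each array left out in turn. Its other probe set, 1422528_a_at, was not tested, with signals of 14.9 to 18.9 on 5 arrays and 38.4 on HuD array 2.

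TTP, the founding member of that zinc finger family, is induced as an immediate early gene. The only probe set of Zfp36 read 56.1, 56.5 and 56.4 on the HuD arrays, 31.3 and 51.8 on the IgG arrays and 28.1 in the input. The HuD arrays lay just above the higher IgG array, and the difference of 0.28 ± 0.24 did not pass (adjusted p = 0.376). A paralog of the family, Zfp36l2, rose (1.32 ± 0.30, adjusted p = 0.00418, in a fit with 1 probe set per gene). Close relatives may be read by each other's probes, which leaves an uncertainty in the values of Tia1 and Tial1, Msi1 and Msi2, Zfp36 and Zfp36l1, and Khsrp and Fubp1.

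AUF1 binds AU-rich mRNAs in several splice forms and can hasten or slow their decay. For Hnrnpd none of the 3 probe sets passed the threshold between HuD and IgG in the limma fit, with 1 at an unadjusted p under 0.05. Probe set 1458273_at came nearest, with HuD signals of 758.8, 450.9 and 657.0, IgG signals of 441.2 and 298.2 and 269.3 in the input. The HuD arrays were above the IgG arrays, by as little as 450.9 against 441.2, and the difference was 0.70 ± 0.30 (adjusted p = 0.0827). It passed without IgG array 1 (0.96) or HuD array 2 (0.90). The other probe sets were at 0.37 ± 0.28 (1425142_a_at) and 0.03 ± 0.34 (1457568_at). For 1457568_at the IgG arrays disagreed, at 1168.2 and 476.0, on either side of the HuD signals of 831.1, 792.1 and 687.8. Neither of the 2 within-gene differences of Hnrnpd passed (0.34 ± 0.46 and 0.66 ± 0.35).

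**Figure D2:**
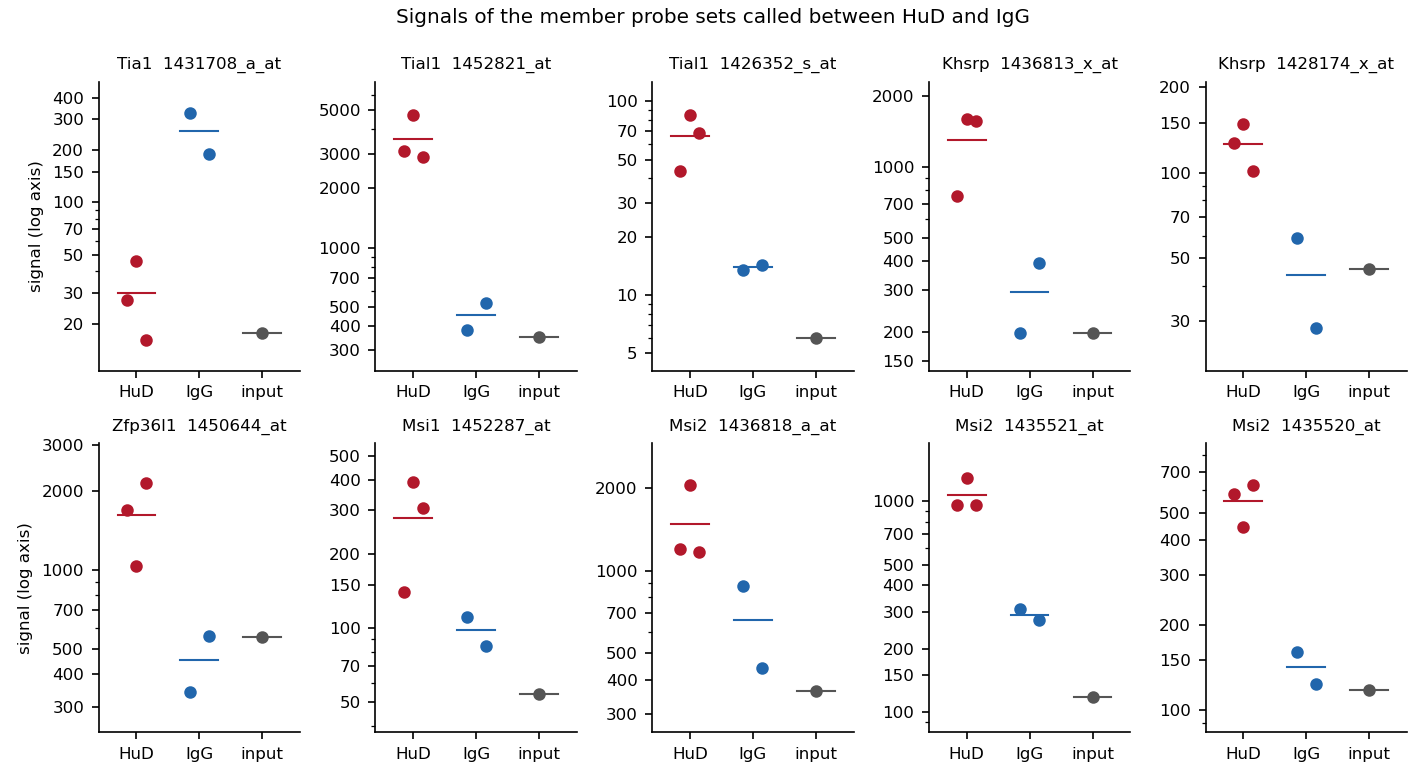
Signals (y axes, log scale, arbitrary units) of the 10 probe sets called between HuD and IgG, with 1 point per array (3 HuD, 2 IgG, 1 input) and a line at the group mean. In 9 panels all HuD points lie above both IgG points, and in Tia1 1431708_a_at the IgG points of 327.7 and 188.7 lie above all others.

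The paralogs TIAR and TIA-1, which share 3 RNA recognition motifs and silence translation of AU-rich mRNAs, gave the largest difference upward and the only fall. Tial1 probe set 1452821_at read 3100.2, 4721.4 and 2878.1 on the HuD arrays, 382.7 and 521.4 on the IgG arrays and 349.4 in the input. No HuD array came near the other groups. The rise was 7.33-fold (2.87 ± 0.29, adjusted p = 0.000168). A second probe set, 1426352_s_at, rose 2.10-fold (1.07 ± 0.25, adjusted p = 0.00662), from IgG signals of 13.5 and 14.3 to HuD signals of 43.8, 85.3 and 69.0. At 6.02 in the input and below the filter level on the IgG arrays, it passed the filter through its HuD signals.

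The remaining 3 probe sets of Tial1 did not follow. Probe set 1455675_a_at read 209.1, 239.2 and 200.5 on the HuD arrays, 275.0 and 158.6 on the IgG arrays and 226.4 in the input, a difference of 0.03 ± 0.28. Probe set 1455676_x_at was at −0.07 ± 0.27. Probe set 1421148_a_at was at −0.37 ± 0.24 (adjusted p = 0.221), with all HuD signals (21.2, 34.1 and 23.8) below both IgG signals (47.5 and 39.2). All 4 probe sets differed from 1452821_at in the within-gene test, by −3.25 ± 0.31 for 1421148_a_at (adjusted p = 0.000954), −2.95 ± 0.30 for 1455676_x_at, −2.84 ± 0.37 for 1455675_a_at and −1.80 ± 0.30 for 1426352_s_at (adjusted p = 0.00424). These 4 differences passed under every alternative run. The probe sets of Tial1 thus read unequal changes of the same annotated gene.

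Tia1 showed the opposite layout, with 4 of 5 tested probe sets near 0 and 1 lower in the HuD pulldowns. The 4 differences ranged from −0.19 ± 0.27 (1416812_at) to 0.22 ± 0.27 (1437934_at), and their HuD and IgG arrays overlapped. For 1416814_at, for example, the HuD signals were 473.0, 267.4 and 459.0, the IgG signals 283.4 and 393.7, and the input 278.4. Probe set 1431708_a_at read 27.5, 46.2 and 16.2 on the HuD arrays, 327.7 and 188.7 on the IgG arrays and 17.6 in the input. HuD arrays and input were alike there, near the filter level, and both IgG arrays were far above them. It was 4.64-fold lower with HuD than with IgG (−2.21 ± 0.30, adjusted p = 0.000475), and differed by −2.41 ± 0.47 from 1416814_at of the same gene (adjusted p = 0.00757). It passed the filter through its IgG signals. The sixth Tia1 probe set, 1453803_at, was not tested, with signals of 1.8 to 12.4.

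**Figure D3:**
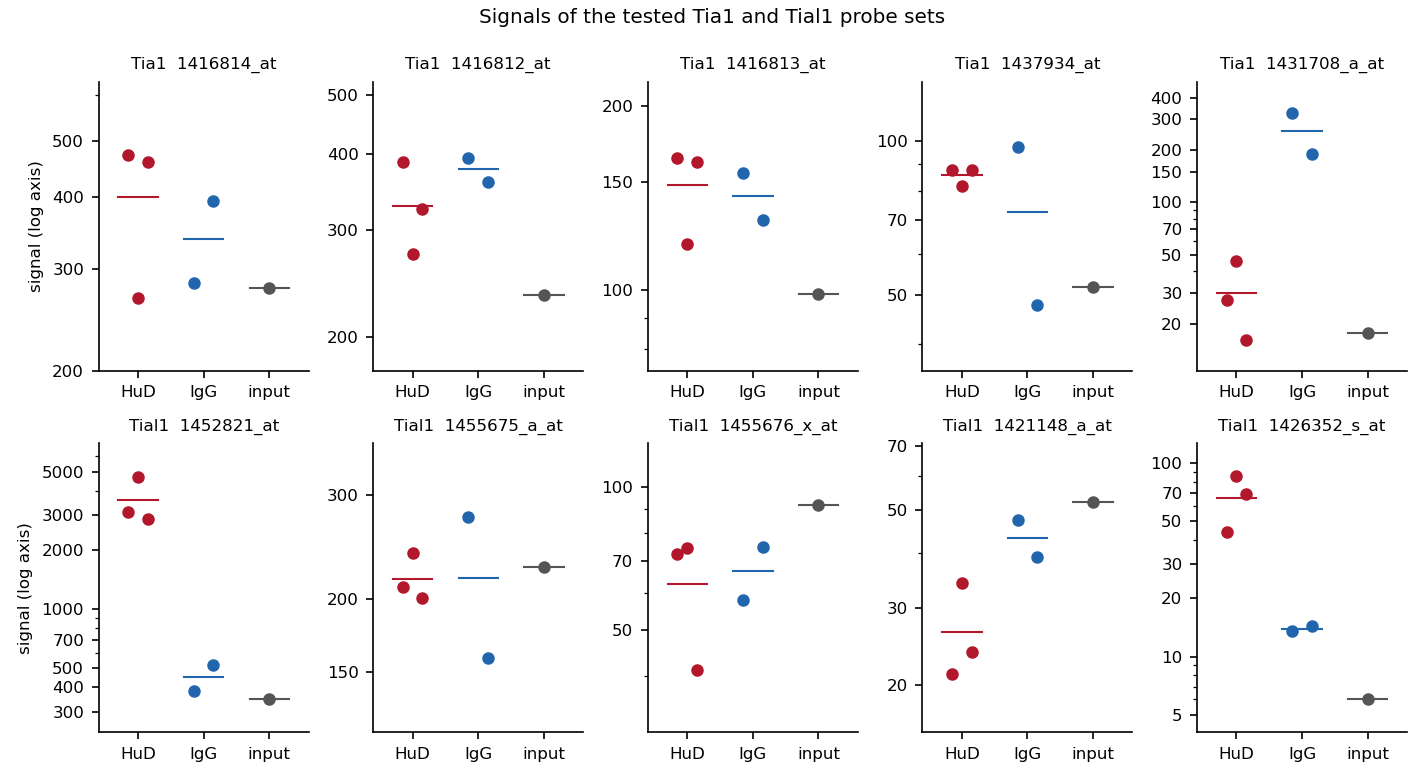
Signals (y axes, log scale with its own range in each panel, arbitrary units) of the tested probe sets of Tia1 (upper row) and Tial1 (lower row), with 1 point per array and a line at the group mean. Tial1 1452821_at and 1426352_s_at are highest on the 3 HuD arrays, Tia1 1431708_a_at is highest on the 2 IgG arrays (327.7 and 188.7), Tial1 1421148_a_at has its HuD points below both IgG points, and in the other panels HuD and IgG points overlap.

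Both Musashi genes rose in the HuD pulldowns. Msi1 marks neural stem and progenitor cells, and Msi2 is expressed more widely in the nervous system. For Msi2 the probe sets 1435521_at and 1435520_at rose 3.38-fold (1.76 ± 0.27, adjusted p = 0.000792) and 3.35-fold (1.74 ± 0.27, adjusted p = 0.000921). The first read 963.0, 1284.6 and 955.1 on the HuD arrays, 308.0 and 273.1 on the IgG arrays and 117.9 in the input. The second read 581.9, 444.1 and 625.5, then 159.6 and 122.9, and 117.4. In both, the groups were well apart, and both calls held with each array left out.

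Another Msi2 probe set, 1436818_a_at, rose 2.22-fold (1.15 ± 0.35, adjusted p = 0.0205), with HuD signals of 1197.9, 2066.8 and 1173.2, IgG signals of 877.4 and 443.1 and 364.8 in the input. The gap between the lowest HuD and the higher IgG array was small, and the call was lost without HuD array 2 (0.89) or IgG array 2 (0.68). The titles of 3 arrays, HuD 1, IgG 1 and the input, end in le1 and those of the others in e1_le1. Within the suffix le1 the difference of 1436818_a_at was 0.44 and within e1_le1 it was 1.74, values with no test. All called probe sets kept their sign in both, and besides this one and that of Msi1 the values were 0.74 to 2.92 for the other rises and −2.60 and −1.85 for Tia1.

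The 4 other tested Msi2 probe sets did not pass, at 0.46 ± 0.27 (1421230_a_at), 0.00 ± 0.30 (1458136_at), −0.20 ± 0.26 (1421231_at) and −0.34 ± 0.22 (1443008_at). The first of these passed without IgG array 1 (0.77). Of 6 within-gene differences from 1436818_a_at, 2 passed, for 1421231_at (−1.35 ± 0.36, adjusted p = 0.028) and 1443008_at (−1.49 ± 0.40, adjusted p = 0.0287). With quantile normalization neither passed (−0.98 and −1.18). Both were lost without IgG array 2 (−0.86 and −0.97), HuD array 1 (−1.27 and −1.62) or HuD array 2 (−1.23 and −1.19). That of 1458136_at (−1.15 ± 0.45) passed only without HuD array 3 (−1.57). The eighth probe set, 1441185_at, with signals of 2.1 to 17.2, was not tested.

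For Msi1 a single probe set, 1452287_at, was bright enough to be tested. It read 140.5, 392.5 and 305.7 on the HuD arrays, 111.2 and 84.7 on the IgG arrays and 54.2 in the input. HuD array 1 lay far closer to the IgG arrays than the other 2 HuD arrays did. The rise was 2.25-fold (1.17 ± 0.36, adjusted p = 0.0215) and was lost without IgG array 2 (1.02), HuD array 2 (0.90) or HuD array 3 (1.07). Within the suffix le1 it was 0.27 and within e1_le1 it was 1.70. The other Msi1 probe sets had signals of 1.6 to 14.8 (1444306_at) and 1.85 to 26.6 (1421409_at).

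Pumilio 2 represses bound mRNAs in the soma and dendrites of neurons. None of its 3 tested probe sets passed between HuD and IgG in the limma fit, with 1 at an unadjusted p under 0.05. Probe set 1418016_at read 2740.7, 1678.8 and 1903.3 on the HuD arrays, 1351.5 and 1313.0 on the IgG arrays and 1423.4 in the input. All HuD arrays were above all others, and the difference was 0.62 ± 0.28 (adjusted p = 0.0911). With 75th percentile centring it was 0.93 and passed. Probe sets 1418017_at (0.19 ± 0.28) and 1418015_at (−0.26 ± 0.25) overlapped between groups, and neither differed from 1418016_at past the threshold (−0.43 ± 0.28 and −0.88 ± 0.34). The fourth, 1441448_at, had signals of 3.19 to 13.7.

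Over the 6 genes with 2 or more tested probe sets, 8 of 20 within-gene differences passed, 4 in Tial1, 2 in Msi2 and 1 each in Khsrp and Tia1. On the whole array 19.6% of 7759 such differences passed. Several of the member differences set a dim probe set against a bright one, whose changes the added constant shrinks unequally. The Tia1 difference and 1 of those in Tial1 involve probe sets that passed the filter through 1 group.

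**Figure D4:**
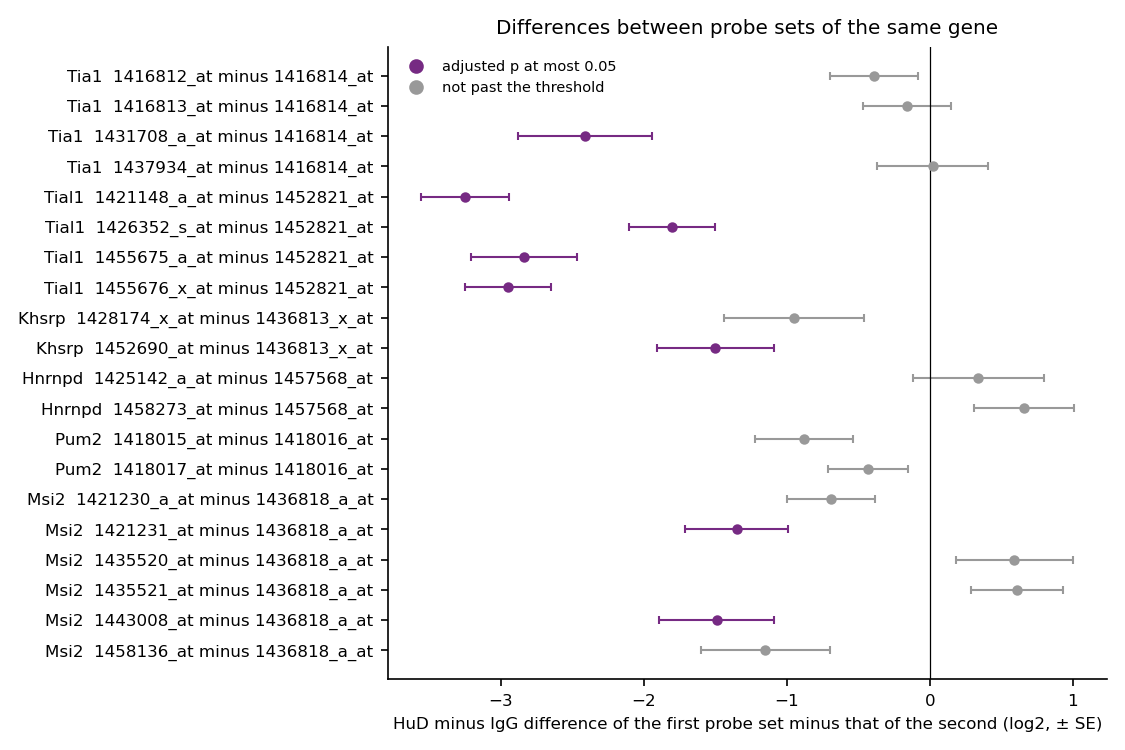
Difference between probe sets of the same gene in their HuD minus IgG value (x axis, log2, mean ± SE from limma), each probe set against that of its gene with the highest mean (y axis). Purple points passed an adjusted p of 0.05, with all 4 Tial1 points between −3.25 and −1.80.

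Compared with the input RNA, 8 of the 29 probe sets rose in the HuD pulldowns, none fell and 21 did not pass, against 9.75% rising and 15.6% falling over all probe sets. At an unadjusted p under 0.05 limma gave 11 rises and 0 falls among the members, with no share of all probe sets counted at that threshold. This comparison shares its HuD arrays with the one against IgG and is not independent of it. Its single input array was assumed to vary like the others. Tial1 1426352_s_at, counted among the rises, passed the filter through its HuD signals, and its call was lost with no filter. The calls of Msi2 1436818_a_at, Zfp36l1 1450644_at and Msi1 1452287_at were lost with no filter as well. The rises were Tial1 1452821_at (9.21-fold, 3.20 ± 0.37, adjusted p = 0.00214) and 1426352_s_at (1.34 ± 0.32), Khsrp 1436813_x_at (2.47 ± 0.47) and Zfp36l1 1450644_at (1.44 ± 0.43). Msi1 1452287_at (1.76 ± 0.45) and Msi2 1435521_at (2.86 ± 0.34), 1435520_at (1.95 ± 0.35) and 1436818_a_at (1.88 ± 0.44) rose as well. Zfp36l1 was lost without HuD array 1 (1.38) or HuD array 3 (1.21). With the title suffix as a block, Zfp36l1 (1.32), Tial1 1426352_s_at (1.14) and Msi1 (1.41) were lost and Hnrnpd 1458273_at passed (1.41). Without either IgG array, Khsrp 1428174_x_at (1.01), Hnrnpd 1458273_at (1.09) and 1457568_at (0.84) and Msi2 1421230_a_at (0.82) also passed at unchanged differences, since IgG arrays enter only the estimate of the spread. Hnrnpd 1458273_at also passed without HuD array 2 (1.29). Over all probe sets rises made up 38.5% of the calls, 71.6% with 75th percentile centring and 51.4% with quantile normalization.

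Between the IgG beads and the input, 1 of 29 probe sets rose and none fell, against 0.235% and 0.00444% of all probe sets. The median difference was 0.28 over the members and 0.00 over all. The probe set that rose passed the filter through its IgG signals, and its call was lost with no filter. At an unadjusted p under 0.05 limma gave 2 rises and 0 falls among the members, with no share of all probe sets counted at that threshold. The rise was that of Tia1 1431708_a_at, 5.68-fold above the input (2.51 ± 0.40, adjusted p = 0.0322), with 0.29 ± 0.38 for HuD against input. It was one of 53 rises over the whole array, a count that was 0 without HuD array 1 or 2, where the Tia1 call was lost at the same 2.51, and 524 without IgG array 2. Without IgG array 1 the Tia1 difference was 2.15 and did not pass. For the other 28 probe sets the differences ranged from −0.33 ± 0.36 (Tial1 1455676_x_at) to 1.10 ± 0.36 (Msi2 1435521_at, adjusted p = 0.298). The input array had the lowest of the 6 signals in 13 of the 29 probe sets, against 16.3% of all tested probe sets.

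Genes that work with these proteins were compared with 1 probe set per gene, the one with the highest mean. In that fit 5 of the 8 tested members rose, none fell (0 at an unadjusted p under 0.05 in limma) and Zfp36 was below the filter. Over all 9096 genes 21.5% rose and 34.0% fell, with medians of 1.16 for the members and −0.28 for all. Rises made up 38.8% of all calls there and 59.8% with 75th percentile centring. The count of members that rose was 3 without HuD array 2 or without IgG array 2, where Msi1 and Msi2 were lost. It was 6 with median centring, 75th percentile centring or the title suffix block, where Pum2 also passed (0.77, 0.93 and 0.68, against 0.62).

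Other AU-rich and 3′ binders mostly rose, with 15 of 20 tested genes higher, 1 lower and a median of 1.00. Over all genes 21.5% rose and 34.0% fell. The RING finger protein gene Rc3h2 rose 4.77-fold (2.26 ± 0.38), the poly(C)-binding protein genes Pcbp2 (2.25 ± 0.31) and Pcbp1 (1.67 ± 0.22) rose 4.74-fold and 3.19-fold, and Stau2, which carries mRNAs into dendrites, rose 2.97-fold (1.57 ± 0.27). All 3 tested probe sets of Pcbp2 rose, whereas for Rc3h2 1 of 4 did not pass (−0.34) and for Stau2 1 of 3 fell (−0.92). Of the direct paralogs of members, Fubp1 (1.31) and Fubp3 (0.98), relatives of Khsrp, rose, as did Hnrnpab (0.74), while Hnrnpdl (−0.30 ± 0.21) did not pass. Another probe set of Fubp1 fell (−0.84), as did one of Hnrnpab (−0.79), and Hnrnpab was lost without HuD array 1 (0.75) or HuD array 3 (0.71). The gene that fell was Larp1, a regulator of ribosomal protein mRNAs (−1.12 ± 0.33), named here after its value was seen. With IgG array 1, HuD array 1 or HuD array 2 left out, or centred on the 75th percentile, 0 genes of the list fell. Without HuD array 1 12 genes of the list rose.

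Of 13 tested partners of TIA proteins in stress granules 3 rose, 2 fell and 8 did not pass (median 0.29), where 21.5% of all genes rose and 34.0% fell. The RNA helicase gene Ddx6 (1.00 ± 0.28) and Tardbp (1.14 ± 0.25), which encodes the RNA-binding protein TDP-43, rose, and Ubap2l (−1.40 ± 0.24) and Usp10 (−1.34 ± 0.27) fell. The other 2 probe sets of Ddx6 (0.54 and 0.43), the other 4 of Tardbp and the other 2 of Ubap2l did not pass. Ddx6 was lost with quantile normalization (0.77) and without IgG array 2 (0.64). The number of rises was 6 without IgG array 1, 1 without IgG array 2, and 2 without each of the HuD arrays.

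The last list held genes for enzymes of deadenylation and decay and for their partner proteins, a machinery of which KSRP and the zinc finger proteins recruit parts. Among its 27 tested genes 9 rose, 8 fell and 10 did not pass (median 0.40), where 21.5% of all genes rose and 34.0% fell. The deadenylase gene Cnot6l rose (1.72 ± 0.28, with all 4 probe sets rising). So did Pan3 (1.57 ± 0.35), for a subunit of a deadenylase complex, and Lsm1 (1.59 ± 0.38), of the decapping activator ring. Edc4, a scaffold of decapping, fell 3.65-fold (−1.87 ± 0.30). The rise of Lsm1 was 0.84 without IgG array 1 and still passed. The number of falls was 3 with median centring, 1 with 75th percentile centring and 3 with quantile normalization, and with each of these 13 genes rose. It was 2 without HuD array 1 and 3 without HuD array 3 or IgG array 1.

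**Figure D5:**
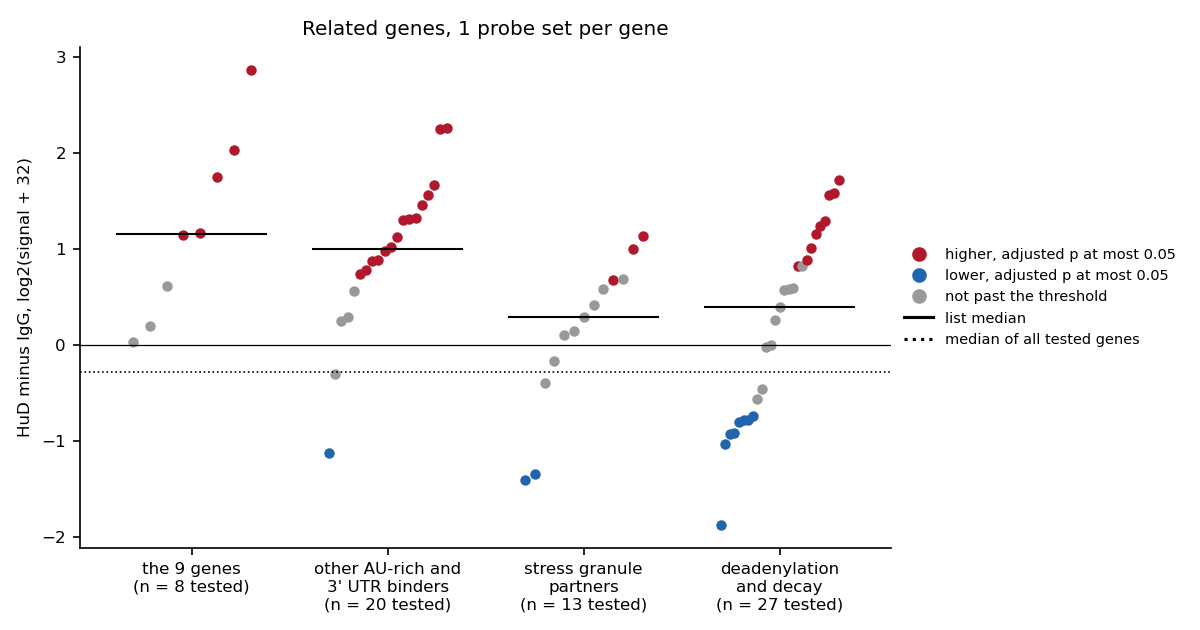
Difference between HuD and IgG (y axis, log2(signal + 32)) for the tested genes of 4 lists with 1 probe set per gene (x axis), ordered by value within a list, with red for higher, blue for lower and grey for not past an adjusted p of 0.05. List medians (solid lines) are 1.16, 1.00, 0.29 and 0.40, and that of all tested genes (dotted line) is −0.28.

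Genes with the most similar profile over the 6 arrays were listed for each member as a description, by Pearson correlation of the representative probe sets. For Tial1 these were Dtl (r = 0.9989) and Tpbg (0.9988), for Zfp36l1 Fbxo33 (0.9969) and Chsy1 (0.9956), and for Msi2 Ppig (0.9951) and Tfcp2 (0.9923). For Khsrp they were the translation initiation factor genes Eif4h (0.9947) and Eif4a1 (0.9932), and for Msi1 Limk1 (0.9872) and 4932431P20Rik (0.9780). Kat6a (0.9896) and Ipo11 (0.9866) were nearest to Tia1, Osgin2 and Agmo (both 0.9865) to Pum2, and Zfp106 (0.9850) and Pcnx (0.9846) to Hnrnpd. All profiles share the same 6 arrays.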

How the data were processed

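The values were 1 intensity per probe set on a linear scale, as deposited by the authors for 6 mouse arrays. The mean of signals without the lowest and highest 2% was 150 on every array, so the authors had scaled the arrays to a common level. The software behind the signals is not given in the sources used here, there were no detection calls, and the number of arrays limits the precision. Of 45101 probe sets 64 array controls were left out, and names came from GEO's platform annotation.

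Log2(signal + 32) was modelled by limma 3.58.1 (R 4.3.3) with a mean for each of the 3 groups (eBayes with a mean-variance trend, 3 residual degrees of freedom). Tests ran across all 22518 probe sets past the filter, with p-values adjusted by Benjamini-Hochberg at a threshold of 0.05. Differences between probe sets of a gene were fitted the same way without a trend, over pairs that both passed the filter. The steps were tested on simulated arrays with known changes. Their noise was independent and of equal spread in all groups, unlike that of the real arrays, so this test does not bear on the calls above. Arrays are numbered in order of deposit. Over probe sets, log2 differences between the 2 IgG arrays had an SD of 0.6 and those between HuD arrays 0.348 to 0.458, and all groups shared 1 variance per probe set.

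The members, lists and tests were chosen with earlier results of these data known. Every member probe set is described. From each related list the 4 genes with the largest absolute HuD to IgG difference are named, plus the direct paralogs of members, and for each member the 2 genes most similar over the arrays. Of the 3 related lists 3, 2 and 1 genes were not analysed here, and 5, 2 and 8 were below the filter.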

Additional observations from a re-analysis of the deposited data

How the results depend on the processing

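The alternatives were pseudocounts of 16 and 64, median centring, 75th percentile centring, quantile normalization, no filter, no mean-variance trend, the title suffix as a block, and each HuD or IgG array left out. No member value past the threshold changed sign under any of them. For HuD against IgG, 224 of 232 values under the alternatives that kept all arrays stayed on their side of the threshold, 2 lost and 6 gained a call. With 1 array left out it was 137 of 145, with 5 lost and 3 gained. The number of rises was 13 with 75th percentile centring and 7 without the filter, where Msi1 1452287_at and Msi2 1436818_a_at were lost, with more probe sets adjusted over. For HuD against input the number of rises was 4 without the filter, 12 with 75th percentile centring and 6 with the title suffix block. For IgG against input the number of rises was 0 with median centring, quantile normalization, no filter or the title suffix block, and 0 to 1 with an array left out. With 1 probe set per gene 3 to 5 members rose with an array left out, and 4 when all probe sets of a gene were averaged, where Msi1 was at 0.31. The within-gene differences that passed numbered 5 with quantile normalization and 5 to 8 with an array left out. The cause of these changes was not tested. Within-gene differences were fitted without a trend throughout, so that alternative was not run for them.

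Over all probe sets the alternatives gave 2299 to 4866 rises and 2829 to 6046 falls for HuD against IgG, 1201 to 3828 and 1350 to 5213 for HuD against input, and 0 to 524 and 0 to 64 for IgG against input, against 3309 and 5861, 2196 and 3515, and 53 and 1. With 1 probe set per gene there were 1488 to 2535 rises and 1702 to 3095 falls, against 1958 and 3093. Within-gene differences past the threshold numbered 772 to 3503, against 1521. Without HuD array 1, falls for HuD against IgG numbered 3194, or 1981 with 1 probe set per gene, and for HuD against input there were 1201 rises and 1350 falls, with 1954 falls without HuD array 3. For IgG against input there were 31 rises without IgG array 1, 524 without IgG array 2 and 0 without HuD array 1 or 2. The numbers in the titles are shared by 2 pairs of HuD and IgG arrays, HuD 1 with IgG 1 and HuD 3 with IgG 2, whose deviations from the group means correlated at −0.04 and 0.31, so the arrays may share only a number. A replicate block on these numbers, chosen after seeing the data and with 1 residual degree of freedom, kept all 10 calls of HuD against IgG and added Pum2 1418016_at (0.76) and Hnrnpd 1458273_at (0.90). The block gave 6 in place of 5 with 1 probe set per gene, and 10 in place of 8 within-gene differences. Calls over the whole array grew as well. All probe sets had 3618 rises and 6331 falls in place of 3309 and 5861. With 1 probe set per gene there were 2138 and 3278 in place of 1958 and 3093. Within-gene differences past the threshold were 711 upward and 1299 downward in place of 523 and 998. The input has no number, so no paired fit was made with it. Low signals come without detection calls, so the order given above for dim probe sets is only a description.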
